A study of Mus musculus with 7 samples.

Results

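The replication-type histone genes of the mouse were measured in RNA bound to ribosomes of cerebellar Purkinje cells, in nm3888-/- mutant and wild-type mice. They were chosen by name, as every gene whose symbol begins with Hist1h, Hist2h, Hist3h or Hist4h and does not end in -ps. Of the 69 genes with such a symbol, 65 had at least 1 count, out of 30710 genes with any count and 55401 genes in all. The other 4 (Hist1h2aa, Hist1h3c, Hist2h2aa1 and Hist2h3c1) had no count in any library. After the filter on low counts, 23 of the 65 were tested, together with 17621 genes in all.

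Replication-type histones package newly made DNA, and their genes are switched on in S phase and sit in clusters in the genome. Their messages normally end in a short stem-loop, bound by the protein SLBP, in place of a poly(A) tail, and are destroyed when replication stops. Cells that no longer divide, such as neurons, draw mainly on replacement histones, whose messages carry a poly(A) tail. H2A, H2B, H3 and H4 form the core of the nucleosome, and H1 binds the DNA between nucleosomes.

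The data comprise 7 count libraries, each from the cerebellum of 1 mouse aged 3 weeks, 4 of them nm3888-/- mutants and 3 wild type. All mice carried Rpl22 fl/+ and 1 copy of the PCP2-Cre transgene, so that ribosomes made in cells in which the Pcp2 promoter is active carry an HA tag, and ribosomes were recovered with an antibody to HA and the RNA selected for poly(A). nm3888 arose spontaneously in mice of the NOD background and is an insertion in an intron of Rreb1, which encodes a zinc finger transcription factor, and it was later bred onto C57BL/6J. The wild-type mice had no nm3888 allele. The library names form a first series (mutants 1 and 2, wild types 1 and 2, all female) and a second series (mutants 3 and 4, both male, and wild type 3, female), so that sex and genotype cannot be told apart within the second series.

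Total counts per library lay between 18023017 and 107937386. Levels are given as CPM (counts per 1000000 of the library total times its TMM factor). The 20 Purkinje cell markers summed to 43364 to 61196 CPM in mutants and 46688 to 55699 CPM in wild types, and Itpr1, Car8 and Calb1 led them. Rreb1, the mutated gene, measured 20.2, 19.1, 23.7 and 10.8 CPM in mutants 1 to 4, against 17.7, 17.4 and 14.4 CPM in wild types 1 to 3, with overlap (log2 fold change 0.20, SE 0.23, adjusted p = 0.640, edgeR). The study describes loss of the main Rreb1 transcript in mutant brain, where its in situ probe for all Rreb1 transcripts detected none. This count was not lower in the libraries labelled nm3888-/-. It sums over all transcripts of the gene and does not check the labels, so the mutants are the libraries labelled nm3888-/-, and each direction given here rests on those labels. In bulk RNA of this kind, fewer cells of a type and less RNA per cell cannot be told apart.

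Since the libraries were selected for poly(A), the 3′ end of each gene model bears on what was counted. The stem-loop, searched for as GG, 2 bases of any kind, CTTTT, 1 base of any kind, AG, 2 bases of any kind and CC on the sense strand of the GENCODE M21 transcripts (GRCm38), was present in 41 of the 65 members and in 28 of 21834 other protein-coding genes (0.128%). Of the 9 members that passed the test between genotypes, 6 held it. These 6 are printed because they mark the end at which a replication-type message is normally cut, with the stem-loop in capitals and 6 bases on each side, in GRCm38 coordinates.
Hist1h1c (chr13:23739506-23739533, + strand): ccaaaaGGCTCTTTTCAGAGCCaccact
Hist1h1d (chr13:23555781-23555808, + strand): tcaaacGGCTCTTTTCAGAGCCacccac
Hist1h2bh (chr13:23542922-23542949, - strand): cccaaaGGCTCTTTTCAGAGCCactcaa
Hist1h2bk (chr13:22036294-22036321, + strand): accaaaGGCTCTTTTAAGAGCCactaaa
Hist1h4i (chr13:22040960-22040987, - strand): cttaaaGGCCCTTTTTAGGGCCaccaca
Hist3h2ba (chr11:58949343-58949370, + strand): cccaaaGGCTCTTTTCAGAGCCaccttc
Hist1h1c, Hist1h1d, Hist1h2bh and Hist3h2ba shared the same 16 letters, which 24 members carried. For Hist1h2bc, Hist1h2bq and Hist1h2br the letters were not in the annotated transcripts.

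The annotated transcripts often ran on past the stem-loop. The median length after it was 564.5 bases in the 18 tested members that had one, against 42 bases in 23 untested members, and 4884 bases in Hist1h1d. A poly(A) signal (AATAAA or ATTAAA) stood in the last 50 bases of a transcript in 10 of 23 tested members and 6 of 42 untested ones. The tested members also had longer gene models, with a median of 1249 bases against 483.5 bases. The members were tested because they had counts, so these lengths describe which histone genes were detected and support nothing else.

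Promoters are shown for 5 members that passed the test, and for Hist1h2ac, whose divergent promoter lies between it and Hist1h2bc, the member with the most counts. Each window is 300 bases long and ends 50 bases after the gene start (RefSeq, GRCm38.p6), written 5′ to 3′ on the gene's strand. Capitals mark TATAAA, the CCAAT box (CCAAT), the octamer (ATTTGCAT) and the AAACACA element known from H1 genes, each on either strand. A match is a run of letters and no evidence of binding.
Hist1h1c (chr13:23738557-23738856, + strand): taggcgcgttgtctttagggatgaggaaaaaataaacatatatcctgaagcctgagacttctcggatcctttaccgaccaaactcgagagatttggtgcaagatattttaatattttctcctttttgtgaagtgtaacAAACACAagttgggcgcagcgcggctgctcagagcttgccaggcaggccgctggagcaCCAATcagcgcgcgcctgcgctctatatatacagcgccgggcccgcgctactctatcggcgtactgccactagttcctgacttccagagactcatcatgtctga
Hist1h1d (chr13:23554782-23555081, + strand): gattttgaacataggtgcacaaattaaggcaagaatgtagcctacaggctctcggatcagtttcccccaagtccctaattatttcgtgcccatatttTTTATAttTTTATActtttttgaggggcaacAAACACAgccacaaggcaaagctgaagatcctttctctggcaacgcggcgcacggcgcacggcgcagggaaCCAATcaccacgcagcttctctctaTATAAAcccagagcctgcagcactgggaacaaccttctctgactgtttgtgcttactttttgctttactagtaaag
Hist1h2ac (chr13:23683910-23684209, - strand): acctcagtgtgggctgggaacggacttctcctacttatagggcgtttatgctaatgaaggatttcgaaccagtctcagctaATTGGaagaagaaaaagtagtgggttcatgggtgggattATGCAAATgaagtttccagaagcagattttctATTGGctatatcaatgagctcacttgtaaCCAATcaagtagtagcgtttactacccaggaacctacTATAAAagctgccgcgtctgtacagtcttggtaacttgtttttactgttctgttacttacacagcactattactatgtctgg
Hist1h2bh (chr13:23543395-23543694, - strand): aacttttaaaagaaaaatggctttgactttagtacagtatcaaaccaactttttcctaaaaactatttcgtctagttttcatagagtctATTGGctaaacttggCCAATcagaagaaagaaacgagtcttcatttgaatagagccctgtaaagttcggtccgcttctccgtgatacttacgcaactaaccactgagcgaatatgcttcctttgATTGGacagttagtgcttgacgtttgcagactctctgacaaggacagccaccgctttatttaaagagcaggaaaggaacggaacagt
Hist1h4i (chr13:22041313-22041612, - strand): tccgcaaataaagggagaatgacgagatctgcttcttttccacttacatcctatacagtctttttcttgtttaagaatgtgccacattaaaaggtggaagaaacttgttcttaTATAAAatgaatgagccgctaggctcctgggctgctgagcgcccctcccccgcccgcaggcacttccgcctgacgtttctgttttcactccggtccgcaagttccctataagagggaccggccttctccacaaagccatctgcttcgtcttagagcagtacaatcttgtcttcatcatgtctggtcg
Hist3h2ba (chr11:58948661-58948960, + strand): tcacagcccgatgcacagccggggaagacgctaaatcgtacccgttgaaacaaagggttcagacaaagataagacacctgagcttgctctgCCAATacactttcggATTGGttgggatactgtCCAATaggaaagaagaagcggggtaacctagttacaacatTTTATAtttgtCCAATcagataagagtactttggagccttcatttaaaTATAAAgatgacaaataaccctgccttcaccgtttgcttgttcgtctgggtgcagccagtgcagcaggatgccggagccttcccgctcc
Over the 58 of 65 members with a window, the CCAAT letters stood in all 16 H2A, 16 H2B, 8 H3 and 6 H1 windows and in 3 of 12 H4 windows, against 37.4% of all 32851 windows of this length. AAACACA stood in 5 of 6 H1 windows (7.18% of all windows), and ATTTGCAT in 6 of 16 H2A and 7 of 16 H2B windows (1.74% of all). TATAAA stood in 33 of 58 member windows (13.6% of all). The 7 members with a window that rose in mutants held CCAAT in 6, ATTTGCAT in 1, TATAAA in 3 and AAACACA in 2. The 12 tested others held them in 11, 4, 6 and 1, in that order.

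Several linker histone and H2B genes and an H4 gene of the chromosome 13 cluster were higher in mutants. Of the 23 tested members, 8 rose (34.8%, against 2.58% of all tested genes), 1 fell (against 5.95% of all) and 14 did not pass the test (edgeR, adjusted p under 0.05). Over both directions 8.54% of all tested genes passed. The share depends on the filter, since 42 members with few counts were not tested. Of the members that rose, Hist1h1d passed the filter on mutants alone. Hist1h2bk and Hist1h2bq passed it on 2 mutants and 1 wild type, and Hist1h2br on 2 mutants and 2 wild types. Part of the share thus rests on members that were tested through their level in mutants. With no filter, 11 of all 65 members were higher (16.9%, against 2.38% of all 30710 genes with a count, edgeR). The members that rose were Hist1h1c, Hist1h1d, Hist1h2bc, Hist1h2bh, Hist1h2bk, Hist1h2bq, Hist1h2br and Hist1h4i, and the member that fell was Hist3h2ba. The median log2 fold change over the 23 was 0.51 (range -1.15 to 4.11), against 0.03 over all tested genes. Every mutant library lay above every wild-type library in 6 members (5.16% of all tested genes) and below in 1 (8.92%). Without mutant 2, 5 members rose. Without the library series as a term 3 rose, and with sex in its place none did (edgeR, 0.0965% of all tested genes, 7 members higher at an unadjusted p under 0.05).

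**Figure D1:**
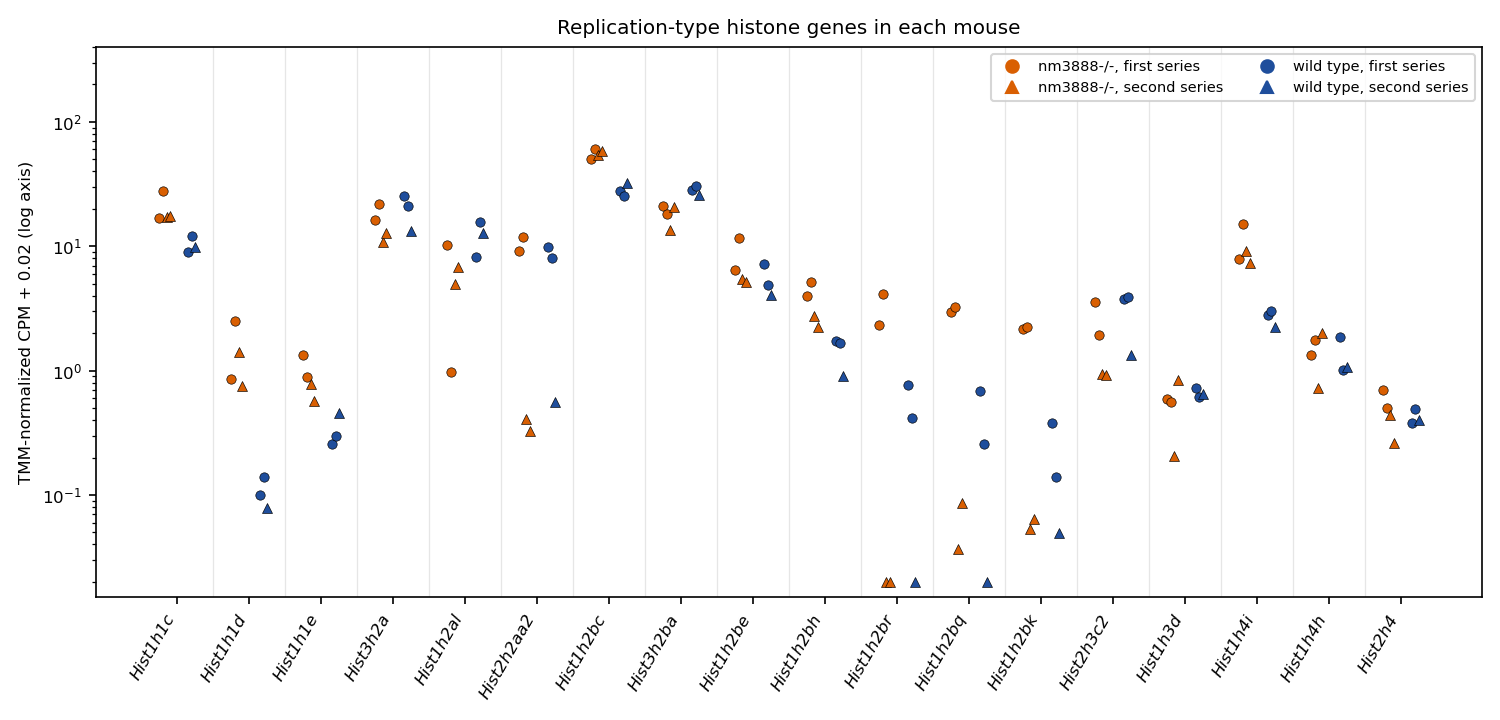
Level of the 18 histone genes described singly, in CPM plus 0.02 on a log axis, with each point 1 mouse, mutants in orange left of wild types in blue, circles for the first series and triangles for the second. Every mutant lay above every wild type for Hist1h1c, Hist1h1d, Hist1h1e, Hist1h2bc, Hist1h2bh and Hist1h4i, and Hist1h2bk, Hist1h2bq, Hist1h2br and Hist2h2aa2 were low in every library of the second series.

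Of 3 tested linker histone genes, 2 rose (66.7%, against 2.58% of all tested genes). Hist1h1c (chr13:23738808-23740367, + strand, mm10), which encodes the linker histone H1.2, measured 16.9, 27.8, 17.3 and 17.3 CPM in mutants 1 to 4 and 8.97, 12.0 and 9.76 CPM in wild types 1 to 3. The groups did not overlap, and mutant 2 stood well above the other mutants. Its log2 fold change was 0.98 (SE 0.19, adjusted p = 0.0145, edgeR). It passed in neither series alone (1.10 with adjusted p = 0.0749 in the first and 0.83 with adjusted p = 0.0588 in the second), nor without wild type 3 (adjusted p = 0.0577).

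Hist1h1d (chr13:23553262-23560686, + strand), which encodes H1.3, measured 0.84, 2.47, 1.40 and 0.73 CPM in mutants, against 0.08, 0.12 and 0.06 CPM in wild types. These are 16, 83, 83 and 33 counts in mutants and 2, 3 and 6 counts in wild types, so the gene was close to undetected in wild type at this depth. No wild type reached the 0.295 CPM that the filter on low counts asked for, so the gene was tested because of its level in mutants. The log2 fold change was 4.11 (95% confidence interval 2.87 to 5.35, adjusted p = 0.0024, edgeR), and it was 4.07 in the first series alone and 4.16 in the second. Hist1h1e, which encodes H1.4, measured 1.31, 0.86, 0.76 and 0.55 CPM in mutants and 0.24, 0.28 and 0.44 CPM in wild types, without overlap, but its log2 fold change of 1.25 did not pass (SE 0.37, adjusted p = 0.0777, edgeR). Its annotated transcript overlaps Hist1h2be on the same strand, where reads cannot be told apart. The other 3 H1 genes (Hist1h1a, Hist1h1b and Hist1h1t) had 1 to 37 counts over all libraries and were not tested. H1 genes together summed to 19.2, 31.5, 19.7 and 18.7 CPM in mutants and 9.44, 12.5 and 10.4 CPM in wild types (ratio of means 2.07).

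Among 11 tested H2B genes, 5 rose (45.5%, against 2.58% of all tested genes) and 1 fell (against 5.95% of all). Hist1h2bc (chr13:23684199-23692908, + strand) took 31.4% of all counts of the members and measured 50.4, 60.8, 54.0 and 58.4 CPM in mutants, against 27.5, 25.5 and 32.3 CPM in wild types. The groups did not overlap, and the mutants varied little. Its log2 fold change was 0.96 (SE 0.11, adjusted p = 0.0013, edgeR). Hist1h2bh (chr13:23541714-23543392, - strand) measured 3.98, 5.16, 2.75 and 2.21 CPM in mutants, against 1.70, 1.66 and 0.89 CPM in wild types (log2 fold change 1.46, SE 0.20, adjusted p = 0.0026, edgeR). Both genes passed within each series alone.

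Hist1h2bk, Hist1h2bq and Hist1h2br also passed the test, but on the first series. They share much sequence with each other, as given below, so their calls may not be separate. Hist1h2bk (chr13:22035870-22036345, + strand) measured 2.15, 2.21, 0.03 and 0.04 CPM in mutants and 0.36, 0.12 and 0.03 CPM in wild types. Hist1h2bq (chr13:21806612-21810197, - strand) measured 2.93, 3.22, 0.02 and 0.07 CPM in mutants and 0.67, 0.24 and 0 CPM in wild types. Hist1h2br (chr13:21833743-21837530, + strand) measured 2.31, 4.08, 0 and 0 CPM in mutants and 0.75, 0.40 and 0 CPM in wild types. Mutants 1 and 2 stood above both wild types of their series, while all 3 libraries of the second series were at or near 0, so the genotypes overlapped over the 7 libraries. The log2 fold changes were 2.73 (SE 0.52, adjusted p = 0.0142), 2.80 (SE 0.47, adjusted p = 0.0077) and 2.46 (SE 0.46, adjusted p = 0.0226, edgeR) in that order. Without mutant 2, Hist1h2br had an adjusted p of 0.106, and without mutant 1 or mutant 2, Hist1h2bk and Hist1h2bq no longer passed the filter on low counts. Hist1h2bk and Hist1h2br also lost the call without wild type 1 (adjusted p = 0.0593 and 0.0529) and without wild type 2 (adjusted p = 0.0800 and 0.128).

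Hist3h2ba (chr11:58948920-58949533, + strand), an H2B gene outside the large cluster, went the other way. It measured 20.9, 18.1, 13.6 and 20.6 CPM in mutants, against 28.4, 30.6 and 26.0 CPM in wild types. Every mutant was below every wild type. The log2 fold change was -0.60 (SE 0.15, adjusted p = 0.0412, edgeR), close to the threshold, and the call was lost without any one of mutants 1 and 2 or of the 3 wild types (adjusted p between 0.0697 and 0.190). Of the 5 other H2B genes tested, Hist1h2be, measured 6.44, 11.6, 5.41 and 5.18 CPM in mutants and 7.19, 4.87 and 4.05 CPM in wild types, which overlapped (log2 fold change 0.51, SE 0.23, adjusted p = 0.222, edgeR). The remaining 4 had log2 fold changes of -0.54 to 0.56. H2B genes together summed to 103, 120, 78.6 and 90.9 CPM in mutants and 75.0, 71.7 and 67.5 CPM in wild types (ratio of means 1.37).

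Hist1h4i, an H4 gene, rose in both series alone and in the 7 libraries together. At chr13:22040636-22041362 (- strand), it measured 7.86, 15.1, 9.13 and 7.32 CPM in mutants, against 2.77, 2.97 and 2.20 CPM in wild types. The lowest mutant was more than the highest wild type in both series. Its log2 fold change was 1.96 (SE 0.24, adjusted p = 0.0016, edgeR), 2.01 in the first series alone and 1.90 in the second. The other tested H4 genes overlapped between genotypes: Hist1h4h averaged 1.43 ± 0.56 CPM in mutants and 1.30 ± 0.49 CPM in wild types, and Hist2h4 averaged 0.46 ± 0.18 CPM in mutants and 0.40 ± 0.06 CPM in wild types (SD, n = 4 and 3). Their log2 fold changes were 0.22 (SE 0.38) and 0.14 (SE 0.33), with 95% confidence intervals of -0.66 to 1.09 and -0.62 to 0.89. H4 genes summed to 10.8, 18.4, 10.5 and 10.1 CPM in mutants and 5.89, 5.14 and 4.19 CPM in wild types (ratio of means 2.46).

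No H2A or H3 gene passed the test over the 7 libraries. None of 4 tested H2A genes was called in edgeR (1 had an unadjusted p under 0.05, and DESeq2 called 0), and none of 2 tested H3 genes (0 with an unadjusted p under 0.05, and 0 by DESeq2). Hist3h2a, the H2A gene with the highest level, measured 16.1, 21.8, 10.7 and 12.7 CPM in mutants and 25.3, 20.97 and 13.2 CPM in wild types, with overlap (log2 fold change -0.24, SE 0.14, adjusted p = 0.356, edgeR). It overlaps Trim17 on the same strand. Hist1h2al measured 10.2, 0.95, 4.97 and 6.82 CPM in mutants, against 8.14, 15.6 and 12.8 CPM in wild types (log2 fold change -1.15, SE 0.57, adjusted p = 0.272), with mutant 2 far below the rest. In the second series alone it was lower in mutants, with a log2 fold change of -1.12 and adjusted p = 0.0164 (edgeR). Over the 7 libraries Hist1h2ac did not pass (log2 fold change 1.58, SE 0.47, adjusted p = 0.0802), but it was called higher with no filter (1.56, adjusted p = 0.0263) and without mutant 1 (1.90, adjusted p = 0.0135, edgeR).

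Hist2h2aa2 measured 9.12, 11.8, 0.39 and 0.31 CPM in mutants and 9.76, 7.95 and 0.54 CPM in wild types, and the split followed the series rather than the genotype (log2 fold change -0.01, SE 0.21, adjusted p = 0.987, edgeR). The H3 genes Hist2h3c2 and Hist1h3d averaged 1.83 ± 1.25 and 0.53 ± 0.26 CPM in mutants and 2.98 ± 1.45 and 0.65 ± 0.06 CPM in wild types (SD, n = 4 and 3). Their log2 fold changes were -0.51 (95% confidence interval -1.04 to 0.03) and -0.31 (-1.33 to 0.71), and neither passed. H2A genes summed to 36.7, 37.4, 16.6 and 20.8 CPM in mutants and 44.4, 46.6 and 27.0 CPM in wild types (ratio of means 0.709). These overlapped across the series, and within each series every mutant was below every wild type. H3 genes summed to 5.55, 3.73, 1.57 and 2.43 CPM in mutants and 5.33, 5.66 and 2.31 CPM in wild types, which overlapped (ratio of means 0.749). H2A and H3 sums were lower in the second series, which holds a larger share of the mutants than of the wild types. Both ratios, and the means of Hist2h3c2, therefore carry the series as well as the genotype.

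**Figure D2:**
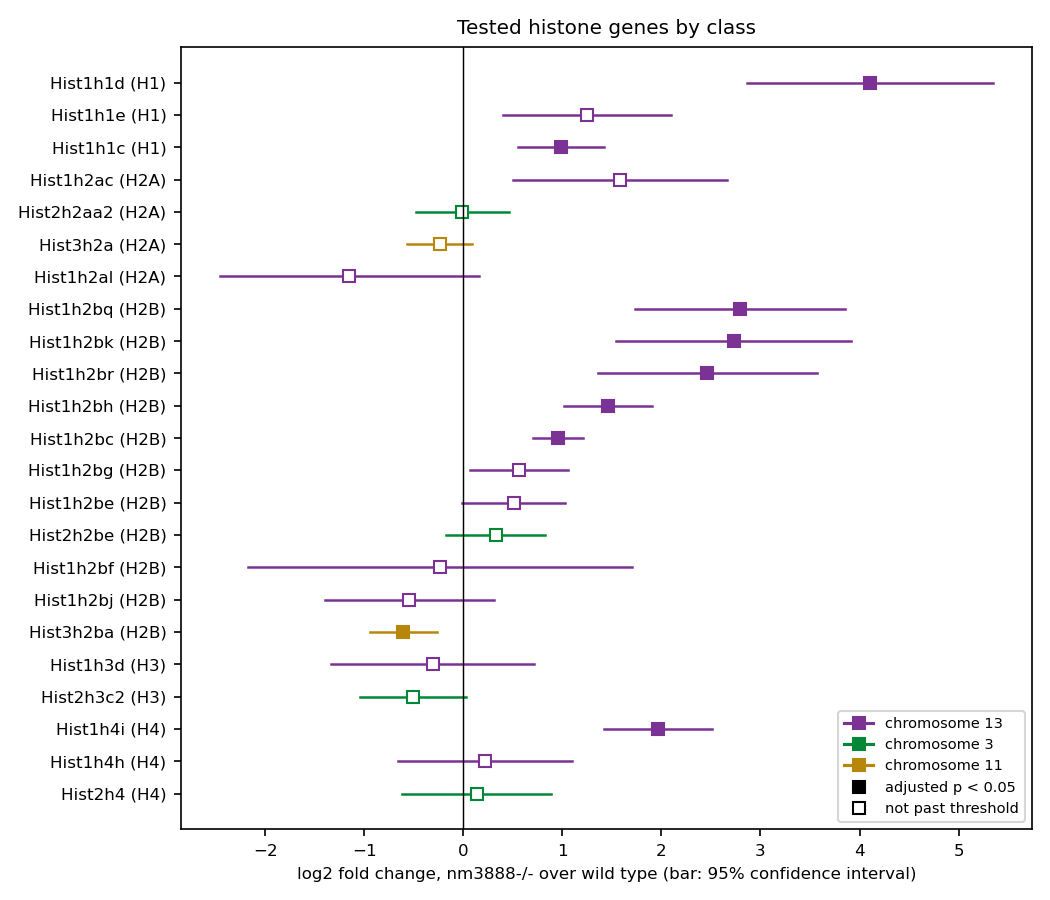
Log2 fold change of the 23 tested histone genes, nm3888-/- over wild type (x axis), with bars for the 95% confidence interval, ordered by class and coloured by chromosome. Filled squares passed the test. The 8 filled squares right of 0 are all on chromosome 13, and the filled square left of 0 is Hist3h2ba on chromosome 11.

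Members were then split by position. The large cluster on chromosome 13 (chr13:21715763-23934851, mm10) holds 53 members with counts, of which 16 were tested. Of these 16, 8 rose (50%, against 2.58% of all tested genes) and none fell (edgeR, with 0 lower at an unadjusted p under 0.05 and 0 lower by DESeq2). The median log2 fold change there was 1.12. On other chromosomes, 11 members had counts and 6 were tested. Of these 6, 1 fell (against 5.95% of all tested genes) and none rose (0 rose at an unadjusted p under 0.05, and 0 by DESeq2), with a median of -0.12. Hist1h2al lies on chromosome 13 outside the cluster. Of the 9 tested H2B genes in the cluster, 5 rose, and of the 7 tested members of the other classes there, 3 rose.

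Summed over the cluster, members measured 112, 154, 94.8 and 99.5 CPM in mutants, against 62.1, 59.8 and 55.7 CPM in wild types. The lowest mutant exceeded the highest wild type, at a ratio of means of 1.94. Members on other chromosomes summed to 53.2, 56.4, 27.3 and 36.6 CPM in mutants and 69.8, 66.1 and 42.8 CPM in wild types. These overlapped across series, and within each series every mutant was below every wild type. All members together were 0.0106 to 0.0209% of the counts of a library.

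**Figure D3:**
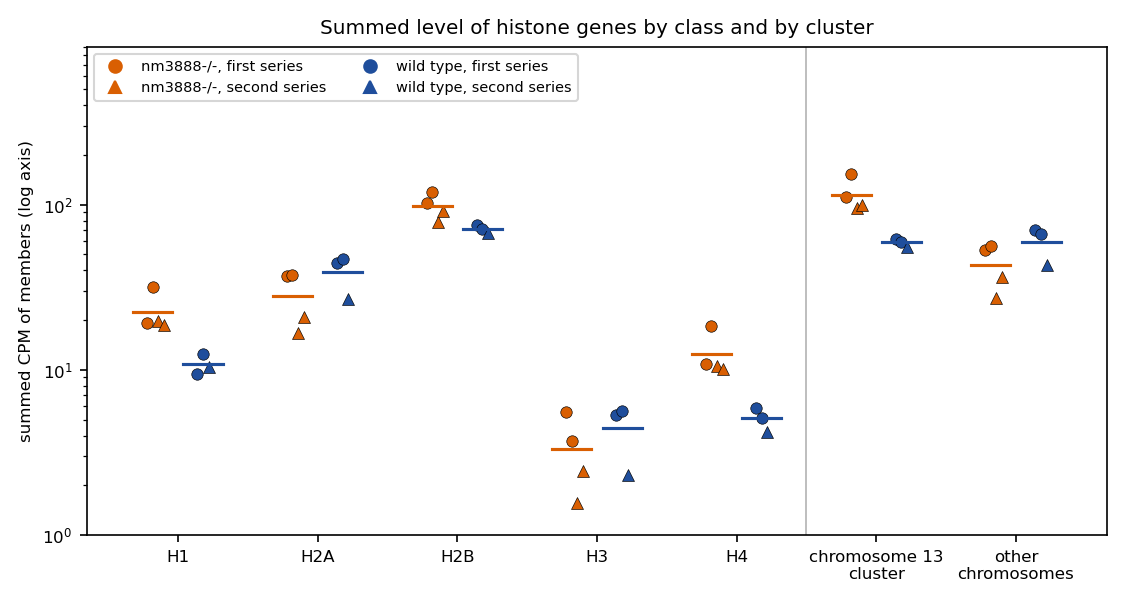
Summed CPM of all histone genes of a class, of the chromosome 13 cluster and of the other chromosomes, on a log axis, with each point 1 mouse (circles first series, triangles second) and the line the mean of a genotype, mutants left of wild types. Mutants and wild types do not overlap for H1, H2B, H4 and the chromosome 13 cluster, and over the 7 libraries they overlap for H2A, H3 and the other chromosomes.

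Genes between the histones in the cluster gave a measure of the region. Of 13 tested genes there that are not histone genes, none rose in edgeR (1 had an unadjusted p under 0.05 and a higher level, and DESeq2 called 1 higher). In edgeR 2 fell (15.4%, against 5.95% of all tested genes), while 3 were lower at an unadjusted p under 0.05 and 3 by DESeq2. The median log2 fold change of the 13 was -0.08. The 2 that fell were Prss16, a thymic serine protease gene, at -1.68 (SE 0.23, adjusted p = 0.0029), and Zfp322a, a zinc finger gene, at -1.26 (SE 0.20, adjusted p = 0.0059). Trim38 had a larger change of -1.89 but did not pass (SE 0.51, adjusted p = 0.0563, edgeR). The cluster ends 13.8 Mb before Rreb1, which is on the same chromosome. Whether the mutants carried NOD or C57BL/6J sequence at the cluster is not given in the sources used here, so an effect of the mutation and of linked sequence cannot be told apart.

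Per kilobase of gene model, the order of the leading members changed between genotypes. Values are means over all libraries of a genotype, so they also carry the series difference, as for Hist2h2aa2. In mutants Hist1h2bc stood first at 48.4 CPM per kilobase, then Hist3h2ba at 29.8, Hist1h2al at 16.9, Hist1h4i at 13.5 and Hist1h1c at 12.7. In wild types Hist3h2ba stood first at 46.1 CPM per kilobase, then Hist1h2al at 36.0 and Hist1h2bc at 24.6, with Hist2h2aa2 at 11.5, Hist3h2a at 9.24, Hist1h1c at 6.57 and Hist1h4i at 3.64. The H2B genes Hist1h2bc and Hist3h2ba took 31.4% and 16.1% of the members' counts. The 23 tested members held 97.6% of these counts, and the 42 untested ones had 1 to 136 counts each over all libraries, with a median of 18.

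Many members share long stretches of sequence with another histone gene, and their levels differed between the 2 series. Of the 100-base windows of a gene's transcripts, the share also present in a gene at another locus was 94.8% for Hist1h2bq, 86.4% for Hist1h2br, 70.8% for Hist1h2bk, 100% for Hist2h2aa2 and 61.6% for Hist2h3c2. In these 5 tested members the median level in the second series minus that in the first was -3.87 on the log2(CPM + 0.1) scale (range -4.31 to -1.56). In the 18 tested members with at most 50% shared, the median difference was -0.33 (range -2.37 to 0.23). The headers of the files place the alignments of the first series in a Bowtie2 folder and those of the second in a STAR folder. Aligner and series cannot be told apart here. The boundary of 50% was chosen after the values were seen.

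**Figure D4:**
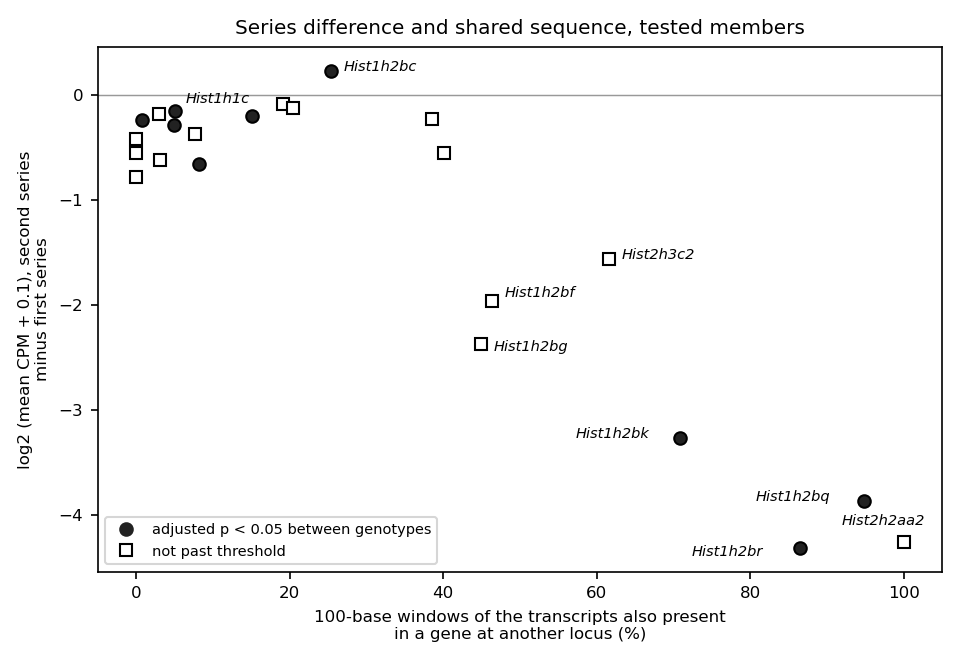
Share of a gene's 100-base transcript windows that also occur in a gene at another locus (x axis, %) against the difference in level between the series (y axis, log2 of mean CPM plus 0.1, second minus first) for the 23 tested histone genes, filled where the genotypes differed in the test. The 5 genes over 50% lie between -4.31 and -1.56, and Hist1h2bc, at 25.4%, lies above 0.

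Members with less shared sequence were also counted apart. Of the 18 tested members with at most 50% shared, 5 rose (27.8%, against 2.58% of all tested genes) and 1 fell (against 5.95% of all). The median log2 fold change of the 18 was 0.42, against 0.03 over all tested genes. These 5 were Hist1h1c (5.07% shared), Hist1h1d (0.792%), Hist1h2bc (25.4%), Hist1h2bh (8.16%) and Hist1h4i (15.1%), and all 5 were higher in every mutant. Hist1h1d was tested because of its level in mutants. In the chromosome 13 cluster, 13 tested members had at most 50% shared, of which 5 rose, with a median of 0.96. Of the members with more shared sequence, 3 of 5 rose (Hist1h2bk, Hist1h2bq and Hist1h2br), and these 3 shared it with each other. Hist1h2bq and Hist1h2br had 1911 windows in common, out of 2015 and 2212. Of the 377 windows of Hist1h2bk, 234 were also in Hist1h2bq. Reads from any of them may be counted for another, so the 3 calls may not be separate. In a test of the difference in genotype effect between the series, 0 of 23 passed (edgeR interaction term, 1 with an unadjusted p under 0.05, against 0.0795% of all genes at an adjusted p under 0.05). The test says nothing about Hist1h2br, which had 0 counts in the second series, or about Hist1h2bq, Hist1h2bf and Hist1h2bk, which had 4, 5 and 7 counts there. The other 19 include the 1 at an unadjusted p under 0.05. With 1 wild type in the second series, a difference may be missed.

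Genes that act on histones, and that dividing cells use, were compared as lists. Of 11 tested replacement histone genes, none rose in edgeR (2 were higher at an unadjusted p under 0.05). DESeq2 called 2 of the 11 higher, against 4.37% of all genes it tested. In edgeR 2 fell (18.2%, against 5.95% of all tested genes), and the median log2 fold change was -0.09. The 2 were H1fx, a linker variant, with 3.95 ± 1.30 CPM in mutants and 7.86 ± 0.50 CPM in wild types (log2 fold change -1.05, SE 0.26, adjusted p = 0.0419, edgeR), and H2afy2, a macroH2A gene (-0.61, SE 0.12, adjusted p = 0.0149). H2afy, the highest gene of the list, averaged 178 ± 29.5 CPM in mutants and 167 ± 45.1 CPM in wild types. H3f3b, which encodes H3.3, averaged 141 ± 31.4 CPM in mutants and 114 ± 18.6 CPM in wild types. H1f0, named in addition, averaged 53.8 ± 4.99 CPM in mutants and 59.0 ± 7.74 CPM in wild types (SD, n = 4 and 3). None of these genes passed.

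Of 23 tested genes for processing and turnover of histone messages, 1 fell (4.35%, against 5.95% of all tested genes) and none rose in edgeR (0 were higher at an unadjusted p under 0.05, and DESeq2 called 0 higher), and the median was -0.01. It was Lsm11, a part of the U7 particle that cuts the message after the stem-loop, with 103 ± 21.4 CPM in mutants and 143 ± 22.96 CPM in wild types (log2 fold change -0.41, SE 0.09, adjusted p = 0.0234, edgeR). The highest gene of that list after Lsm11 was Sympk, a scaffold of the cleavage complex (0.19, SE 0.11, adjusted p = 0.318). Slbp, named here after its values were seen, averaged 28.9 ± 9.14 CPM in mutants and 35.0 ± 10.9 CPM in wild types (-0.40, SE 0.14, adjusted p = 0.118, edgeR). Of 35 tested histone chaperone genes, 1 rose (2.86%, against 2.58% of all tested genes) and 2 fell (5.71%, against 5.95%), with a median of 0.04. Both shares were close to those over all genes in edgeR. DESeq2 called 5 of 35 higher and 4 lower, which are larger shares than its 794 higher (4.37%) and 1256 lower of 18166 genes. Anp32e, which removes H2A.Z from nucleosomes, rose (0.64, SE 0.13, adjusted p = 0.0175, edgeR). The nucleosome assembly genes Nap1l2 (-1.20, SE 0.19, adjusted p = 0.0065) and Nap1l5 (-0.85, SE 0.17, adjusted p = 0.0166) fell. Tspyl4, the highest gene of the chaperone list, did not pass (-0.26, SE 0.10, adjusted p = 0.146, edgeR).

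Of 33 tested genes of S phase and cell division, 1 fell (3.03%, against 5.95% of all tested genes) and none rose in edgeR (3 were higher at an unadjusted p under 0.05, and DESeq2 called 0 higher), and the list summed to 82.0 to 147 CPM in mutants and 89.9 to 145 CPM in wild types. The gene that fell was Ccne1, which encodes cyclin E1 (-0.74, SE 0.12, adjusted p = 0.0058, edgeR). Pcna, the sliding clamp of DNA replication, averaged 24.1 ± 9.37 CPM in mutants and 19.8 ± 9.96 CPM in wild types (SD, n = 4 and 3, log2 fold change 0.13, SE 0.11, adjusted p = 0.522, edgeR). Mki67, a marker of dividing cells named here after its values were seen, averaged 0.34 ± 0.17 CPM in mutants and 0.41 ± 0.09 CPM in wild types.

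Markers of other cerebellar cells were present, with none at 0 in all libraries, and the median of each list was above 0. For granule cells the median of the log2 fold changes was 0.50 (16 tested), and the list summed to 901 to 1682 CPM in mutants and 662 to 835 CPM in wild types, without overlap. For Bergmann glia and astrocytes the median was 0.57 (19 tested, 1 rose and 1 fell, 5.26% each). That list summed to 10363 to 15304 CPM in mutants and 8830 to 14281 CPM in wild types. Aldoc, also made by Purkinje cells, led it. For oligodendrocytes the median was 0.53 (20 tested, 2 rose and 2 fell, 10% each). Their list summed to 940 to 1496 CPM in mutants and 873 to 1170 CPM in wild types. Of all tested genes, 2.58% rose and 5.95% fell.

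Microglia (0.64, 9 tested, 9.60 to 24.4 CPM in mutants and 8.43 to 18.3 CPM in wild types), blood cells (0.62, 7 tested, 108 to 315 CPM in mutants and 89.1 to 114 CPM in wild types), interneurons (0.41, 10 tested, 104 to 157 CPM in mutants and 94.4 to 206 CPM in wild types) and endothelium (0.35, 16 tested, 59.6 to 89.8 CPM in mutants and 39.2 to 62.6 CPM in wild types) also had positive medians. In each of these 4 lists and for granule cells no gene passed in edgeR. At an unadjusted p under 0.05, 8 granule cell, 4 microglia, 3 blood, 4 interneuron and 3 endothelial markers were higher, and 1 microglia and 1 interneuron marker were lower. The share of all genes at this unadjusted level is not given here, so these counts have no background beside them. DESeq2 called 1, 1, 2, 1 and 2 markers of these 5 lists higher, in that order. At the same unadjusted level, 11 oligodendrocyte markers were higher and 3 lower, and DESeq2 called 5 higher and 2 lower. Of Bergmann glia and astrocyte markers, 6 were higher and 2 lower at that level, and DESeq2 called 4 higher and 2 lower. The Purkinje markers had a median of 0.06 (20 tested), with 2 higher and 2 lower at an unadjusted p under 0.05 (edgeR), and DESeq2 called 0 higher and 1 lower. The part of other cells in the histone values was not tested.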

How the data were processed

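RNA bound to HA-tagged ribosomes was sequenced from 4 nm3888-/- and 3 wild-type mice, 1 mouse per library. The authors removed duplicates and trimmed reads with fastp, aligned them to mm10 and deposited raw counts of read pairs per gene, made with featureCounts 2.0.1 (paired, both ends mapped, reverse-stranded, GENCODE M25), with no normalization. The methods name Bowtie2, whereas the file headers name a STAR folder for the second series. Of 55401 gene IDs, 55141 (99.53%) matched a symbol.

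Genotypes were compared with edgeR 4.0.16 (limma 3.58.1, R 4.3.3), by the quasi-likelihood test with TMM normalization, filterByExpr by genotype and the library series as a term, with Benjamini-Hochberg adjustment over all 17621 tested genes and a threshold of 0.05. The study used DESeq2 with batch as a covariate. DESeq2 1.42.0 and the other alternatives are given in the closing section. SE were derived from the fold change and F statistic, and CPM use the TMM-scaled total. The fit was tested on simulated data.

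The members and lists were chosen with earlier results of these data known. Described singly were every member past the threshold and the 3 tested members with the highest mean CPM in each class. So were, of each list except cell type markers, the genes past the threshold (up to 4 per direction) and the 2 highest by mean CPM. H1f0 was named in addition. The cell type markers were given by counts and sums. Sequence features come from GENCODE M21 (GRCm38) and RefSeq (GRCm38.p6), since M25 was not used here as a sequence source. M21 transcript lengths equalled the files' gene lengths for 62 of 65 members.

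Replicate numbers are shared between genotypes. Deviations from the genotype means of same-numbered libraries correlated (r = 0.905, 0.947 and 0.955), as did those of other pairs within a series (0.922 to 0.958), and pairs across series were negative (-0.962 to -0.913). The numbers therefore pair the libraries by series, which the fit holds as a term. The mice are separate animals.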

Additional observations from a re-analysis of the deposited data

Results flagged for a closer look

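Among the 4 mutants, 1 member had a library far from the others. Hist1h1c measured 27.8 CPM in mutant 2, against 16.9 to 17.3 CPM in the other mutants and 8.97 to 12.0 CPM in wild types, and the gap of mutant 2 to its nearest neighbour was 0.953 of the range of log2(CPM + 0.5), above the 95% critical value of Dixon's test. Chance alone marks about 1 in 20 groups, and 18 members were examined. Without mutant 2 the log2 fold change of Hist1h1c was 0.76 (adjusted p = 0.0385, edgeR).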

How the results depend on the processing

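The count of members higher in mutants, 8, was 8 with DESeq2 size factors in edgeR, 9 with DESeq2 (Hist1h2bl added), 11 with no filter (Hist1h2bl, Hist1h1e and Hist1h2ac added), 7 with thinning to the shallowest library (Hist1h2bk lost) and 8 in the first series alone (Hist1h1c lost, Hist1h2bl added). It was 3 with no series term (0.329% of all genes then), 0 with sex in place of the series (0.0965% of all genes), 4 in the second series alone, and 5 to 8 when a library was left out, the lowest without mutant 2. Hist1h1d, Hist1h2bc, Hist1h2bh and Hist1h4i were called in both series alone and in each fit that left out a library. The 1 lower member, Hist3h2ba, gave 0 with DESeq2 size factors, no series term, sex, thinning or the first series alone, and 0 to 1 when a library was left out. Over 16 alternatives its adjusted p was 0.0073 to 0.521. In the second series alone the lower member was Hist1h2al in its place. The median stayed between 0.30 and 0.79. The share of all genes called higher was 2.87% with DESeq2 size factors in edgeR, 4.37% with DESeq2 and 2.38% with no filter. That share was 3% with thinning, 1.12% in the first series alone and 0.969 to 2.52% when a library was left out. DESeq2 tested 29 members, and the fit with no filter tested 65.

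With the replicate block in place of the series, 8 members were higher and 1 lower, with a median of 0.51, while the share of all genes called higher was 1.37%. The block, and with it the pairing by number, changed no call of a member described singly, but turned the sign of Hist1h4h (-0.11) and Hist2h2aa2 (0.071), neither past the threshold.

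Other turned signs were all of uncalled members. Hist2h2aa2 was 0.015 with DESeq2 size factors, 0.0096 with DESeq2, 0.79 with sex and 0.25 in the first series alone, and Hist2h4 was -0.17 in the second series alone. With a library left out, Hist2h2aa2 lay between -0.22 and 0.24, Hist2h4 between -0.015 and 0.44, Hist1h3d between -0.80 and 0.033 and Hist1h4h between -0.13 and 0.48. The causes were not tested. Depth limits the 42 untested members, and Hist1h1d in wild type rests on 2 to 6 counts per library. A second series with 1 wild type assumes that it varies like the mutants.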

Other observations

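Mutant 2 had the highest histone levels of the 4 mutants. The median over the tested members of log2(CPM + 0.5) relative to the wild types of the same series was 0.36, 0.85, 0.01 and 0.18 in mutants 1 to 4. For Hist1h4i the same values were 1.31, 2.21, 1.83 and 1.53, and for Hist1h2bc 0.92, 1.18, 0.73 and 0.84.

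Hist1h2bl, an H2B gene of the cluster that was left out by the filter on low counts, had 37, 75, 6 and 5 counts in mutants 1 to 4 and 3, 5 and 5 counts in wild types 1 to 3. Its sequence is shared with genes at other loci over 62.1% of 100-base windows. It was called higher by DESeq2 (log2 fold change 2.89, adjusted p = 8.72e-05) and, in edgeR, with no filter (2.94, adjusted p = 8.09e-05), in the first series alone (3.69, adjusted p = 0.0052), without wild type 1 (2.49, adjusted p = 0.0441) and without wild type 3 (3.70, adjusted p = 0.0031). Hist1h2ac, the H2A gene beside Hist1h2bc, measured 0.26, 1.01, 0.40 and 0.51 CPM in mutants and 0.32, 0.28 and 0.11 CPM in wild types (adjusted p = 0.0802, edgeR, and under 0.05 with no filter and without mutant 1). Both were singled out after their values were seen.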
